A study of Mus musculus with 8 samples.

Results

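The genes followed here are 10 whose proteins set how long PD-L1 stays on a cell: Cmtm6, Cmtm4, Btrc, Fbxw11, Gsk3b, Spop, Cul3, Stub1, Cops5 and Usp22. They were chosen by name for these roles, with earlier results of these data known. They are 10 of the 13265 genes in the count table, and all 10 passed the filter on low counts. Their transcripts were measured in lung epithelial cells sorted as EpCam+ CD31- CD45- from C57BL6 mice, which were female in the LPS experiments of the study. The LPS group was 3 mice that breathed an aerosol of Escherichia coli lipopolysaccharide (LPS, from the outer membrane of Gram-negative bacteria) at 0.5 mg/ml in PBS, and the PBS group was 5 mice that breathed PBS alone. Each aerosol session took 30 min, with 3 sessions a week for 10 weeks. The genotype given for both groups is C57BL6 with no other allele, the labels give no age, and 10000 sorted cells went into each library. A value is therefore an average over all cell types in the sorted sample.

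PD-L1, the product of Cd274, is a surface ligand that restrains T cells, and its amount on a cell depends on its breakdown as well as on its transcript. CMTM6 and CMTM4, membrane proteins with a MARVEL domain, bind PD-L1 and keep it from lysosomal breakdown, whereas GSK3B phosphorylates PD-L1 for the SCF ligase with β-TrCP, and the ligases of SPOP with CUL3 and of STUB1 (CHIP) mark it with ubiquitin for the proteasome. COPS5 and USP22 are deubiquitinases that remove this ubiquitin. The study asked how PD-L1 accumulates on cells in chronically inflamed lungs, and the comparison of LPS with PBS mice addresses whether transcripts of this machinery differed in the epithelium. The level of a transcript says nothing of the activity of the protein.

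Of these genes 7 have a promoter window in the RefSeq table of GRCm38.p6, the assembly of mm10. The windows of Spop and Cul3, which encode the adaptor and the scaffold of a single ligase and whose ratio is given further on, and of Cmtm4, the member with the smallest p, are shown as the 250 bases before the start, on the strand of the gene. Capitals mark the GC box, GGGCGG or its complement CCGCCC, the letters that Sp1 family factors bind.
Spop, chr11:95413833-95414082, plus strand: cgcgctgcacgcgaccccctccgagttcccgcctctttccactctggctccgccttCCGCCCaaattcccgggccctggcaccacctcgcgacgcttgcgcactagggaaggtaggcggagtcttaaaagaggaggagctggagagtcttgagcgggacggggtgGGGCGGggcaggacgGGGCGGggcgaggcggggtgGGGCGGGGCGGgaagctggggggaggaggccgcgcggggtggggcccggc
Cul3, chr1:80340691-80340940, minus strand: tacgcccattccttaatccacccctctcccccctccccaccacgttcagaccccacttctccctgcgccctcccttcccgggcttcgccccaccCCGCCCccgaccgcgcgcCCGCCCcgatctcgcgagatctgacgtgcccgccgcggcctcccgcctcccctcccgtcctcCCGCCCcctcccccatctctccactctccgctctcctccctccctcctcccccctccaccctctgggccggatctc
Cmtm4, chr8:104395808-104396057, minus strand: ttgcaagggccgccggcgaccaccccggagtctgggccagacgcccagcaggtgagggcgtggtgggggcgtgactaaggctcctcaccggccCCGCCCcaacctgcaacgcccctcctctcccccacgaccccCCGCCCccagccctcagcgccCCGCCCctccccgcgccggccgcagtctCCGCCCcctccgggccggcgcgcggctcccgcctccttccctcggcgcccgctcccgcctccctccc
The Spop window held 5 GC boxes, of which a pair near its end shared a base, the Cmtm4 window held 4 and the Cul3 window held 3. Stub1 had 5 and Cmtm6 had 2, and the windows of Fbxw11 and Gsk3b held none. At least 1 GC box stood in 32.9% of the 27025 promoters of this length, and at least 5 in 1.99%. These matches, searched on both strands, describe letters in the sequence, and binding was not measured.

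The libraries are named by the numbers in the count table, with s4, s14 and s18 for LPS mice and s1, s2, s6, s11, s16 for PBS mice. They held 2739340 to 4445431 UMIs (unique molecular identifiers, 1 per counted molecule) in LPS mice and 2232727 to 2890560 UMIs in PBS mice, and a count of 3 stood for 0.675 to 1.10 CPM (counts scaled to a shared library total) in LPS mice and 1.04 to 1.34 CPM in PBS mice. All other CPM are also scaled by TMM, which evens out differences in composition between libraries. Epcam, the marker used for the sort, averaged 117 CPM in LPS mice and 122 CPM in PBS mice. Pecam1, the gene of CD31, averaged 124 CPM in LPS mice and 119 CPM in PBS mice, although CD31+ cells were excluded by the sort. Endothelial markers took 0.0340% to 0.0707% of the UMIs in LPS mice and 0.0288% to 0.0726% in PBS mice. The markers of alveolar type II cells took 9.80% to 10.2% of the UMIs in LPS mice and 11.9% to 15.1% in PBS mice, and markers of ciliated cells took 0.484% to 0.589% in LPS mice and 0.117% to 0.393% in PBS mice. Macrophage markers other than Lyz2, which type II cells also express, took 0.0778% to 0.109% in LPS mice and 0.0271% to 0.0372% in PBS mice. Lyz2 was left out after the data were seen. With it the median shares ran the other way, 2.56% in LPS mice and 3.21% in PBS mice. Of 13 tested macrophage markers 8 were called higher and 0 lower, although CD45+ cells were excluded by the sort. Ptprc, the gene of CD45, had 23.1 to 37.2 CPM in LPS mice and 7.68 to 35.5 CPM in PBS mice, with overlap. In bulk samples such as these, fewer cells of a type and less RNA per cell cannot be told apart.

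None of the members was called in LPS mice. Calls needed an adjusted p under 0.05 and the fold threshold of the study's methods (edgeR's quasi-likelihood test with Benjamini-Hochberg adjustment over 12661 genes), which 2.03% of all tested genes passed, 1.46% as higher and 0.569% as lower in LPS mice. At an unadjusted p under 0.05 the count was also 0 of 10, where 10.4% of all genes passed as higher and 7.64% as lower, and DESeq2 and limma-voom likewise called 0 of 10, against 4.42% and 1.90% of all genes. The log2 fold change of LPS over PBS was positive for 3 members, Cmtm4, Spop and Cops5, and negative for 7, with a median of -0.07 beside -0.02 over all tested genes, of which 47.3% were positive. The precision was good enough to bound most of them, since the 95% interval lay within 1 log2 unit of 0 for 8 of 10 members and for 63.0% of all genes. The exceptions were Btrc and Cul3, the lowest in level.

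**Figure D1:**
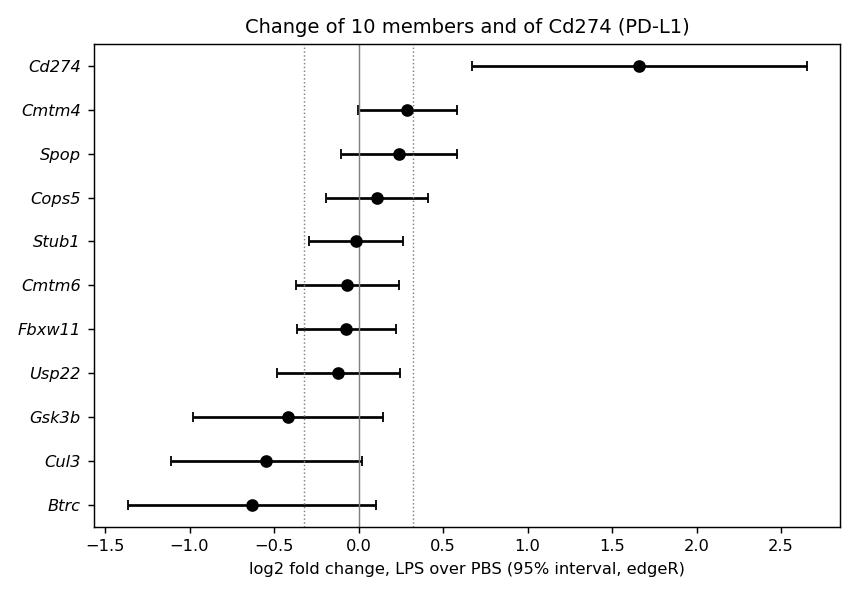
Log2 fold change of LPS over PBS mice for the 10 members and for Cd274 (points), with 95% intervals from edgeR (bars), where dotted lines mark the fold threshold of the calls. The intervals of the 10 members all include 0, and that of Cd274 lies between 0.67 and 2.65.

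The 10 transcripts kept the same order of mean level in LPS and in PBS mice. Stub1 was the most abundant at 245 CPM (mean, n = 3) in LPS mice and 247 CPM (n = 5) in PBS mice, which was 65.2-fold above Btrc, the least abundant, in LPS mice and 42.5-fold in PBS mice. Between them came Spop, Cmtm6, Cops5, Fbxw11, Cmtm4, Usp22, Gsk3b and Cul3, in falling order. MARS-seq counts 1 tag at the 3′ end of each molecule, so these CPM are not divided by transcript length. Only reads at the 3′ part of RefSeq genes were kept, and how fully each gene was captured was not measured. Levels of different genes are therefore compared as counted. Not all neighbours in this order were separated. In LPS mice the ranges of Cops5 and Fbxw11 overlapped, as did those of Fbxw11 and Cmtm4, and in PBS mice the ranges overlapped for Stub1 and Spop, Spop and Cmtm6, Cops5 and Fbxw11, Gsk3b and Cul3, and Cul3 and Btrc. Together the members made up 828 to 848 CPM in LPS mice and 755 to 873 CPM in PBS mice.

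**Figure D2:**
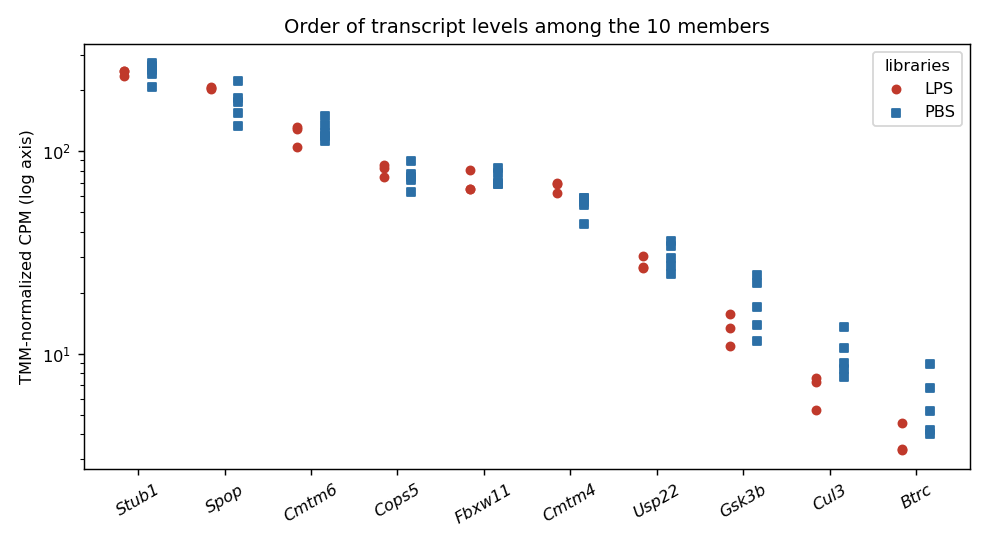
TMM-normalized CPM (log axis) of each member in every library, LPS mice left of PBS mice, with genes ordered by mean level. Stub1 lies above 200 CPM in all 8 libraries and Btrc below 10 CPM.

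CMTM6 and CMTM4 are the protectors of PD-L1. Cmtm6 (chr9:114731157-114749359) had 129, 104 and 132 CPM in LPS mice s4, s14 and s18, against 119, 123, 135, 112 and 149 CPM in PBS mice s1, s2, s6, s11 and s16, the order of libraries kept from here on. The groups overlapped, with s14 the lowest and s16 the highest of all. The log2 fold change was -0.07 (standard error, SE, 0.14, 95% interval -0.37 to 0.24, adjusted p = 0.85 by edgeR's quasi-likelihood test), and its sign turned in 3 of 17 alternatives of the processing.

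Cmtm4 (chr8:104348191-104395807), which can stand in for CMTM6, had 68.5, 69.3 and 62.1 CPM in LPS mice, against 58.8, 58.7, 43.9, 54.5 and 56.2 CPM in PBS mice. Every LPS library was above every PBS library, and s6 was the lowest. The means were 66.6 ± 3.97 CPM in LPS mice (SD, n = 3) and 54.4 ± 6.17 CPM in PBS mice (SD, n = 5), a log2 fold change of 0.29 (SE 0.13, unadjusted p = 0.053, adjusted p = 0.28 by edgeR). It had the smallest p of the members and did not pass the test. Groups without overlap, in either direction, were found for 2 of the 10 members and for 14.4% of all tested genes (8.52% with LPS above PBS, as here), so the share among the members is near the background.

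The level of Cmtm4 moved with the markers of ciliated cells across the libraries. Ordered by the summed share of 5 ciliated markers (Foxj1, Tppp3, Dnaic1, Ccdc153 and Rsph1), the 8 libraries stood in the same order as by Cmtm4, in all 8 places, an agreement noticed after the values were seen. For Cmtm4, s1 and s2 (58.79 and 58.70 CPM) lay closer together than their counting error, as did s4 and s14 (68.5 and 69.3 CPM). These places are therefore not settled. The marker share was 0.500%, 0.589% and 0.484% in LPS mice, against 0.393%, 0.308%, 0.117%, 0.255% and 0.268% in PBS mice. The same order held for 42 of the 12661 tested genes (0.332%) and for none of the 5 markers taken singly, and Spop matched it in 6 of 8 places. Any gene in this order has every LPS library above every PBS library, which held for 1079 tested genes. The 42 lie among these, so 0.332% is a share over genes most of which could not match. Orders by macrophage markers other than Lyz2 and by type II markers were also compared, and Cmtm4 matched them in 1 and 0 of 8 places. All 5 ciliated markers had positive log2 fold changes, between 0.87 and 0.96, of which edgeR called 0 and DESeq2 called 2. The part of ciliated cells in the Cmtm4 values was not tested. The genes whose profiles over the 8 libraries lay closest to that of Cmtm4 were Gpd1l, Ier3 and Wdr48, with root mean square differences of 0.074, 0.076 and 0.078 in centred log2 CPM, beside a median of 0.378 over all genes. A gene flat over the libraries would differ from Cmtm4 by 0.193.

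**Figure D3:**
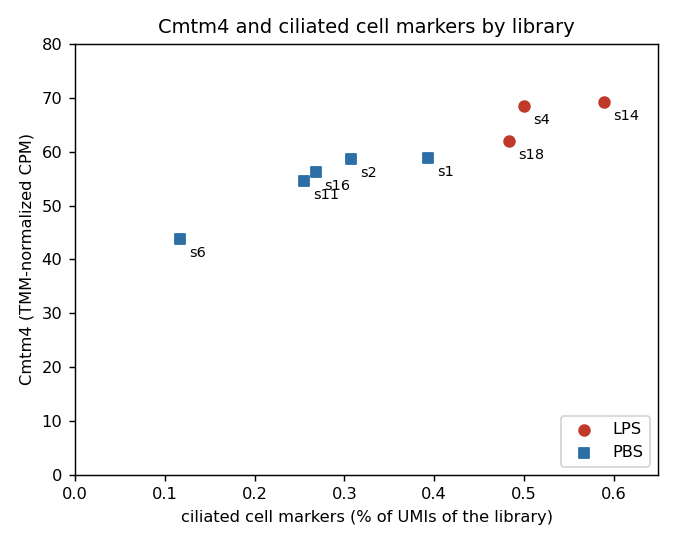
Cmtm4 level (TMM-normalized CPM) against the summed share of 5 ciliated cell markers (% of UMIs) in the 8 libraries, with LPS mice as circles and PBS mice as squares. The order of the libraries is the same on both axes, with s6 lowest (43.9 CPM) and s14 highest (69.3 CPM).

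The β-TrCP arm consists of a pair of F-box proteins and the kinase that primes their substrates. Btrc (chr19:45363688-45533343), which encodes β-TrCP1, had 3.36, 4.55 and 3.34 CPM in LPS mice, against 5.22, 4.19, 3.99, 6.75 and 8.90 CPM in PBS mice. These values rest on 13 to 15 UMIs in each LPS library and 10 to 22 in each PBS library, and the groups overlapped because s14 lay above s2 and s6. Its log2 fold change of -0.63 (SE 0.34, 95% interval -1.37 to 0.10, adjusted p = 0.35 by edgeR) was the largest in size among the members and the least precise. The spread over PBS libraries was 35.2% of the mean, where counting error alone gives 26.0%.

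Fbxw11 (chr11:32642555-32746816), which encodes the paralogue β-TrCP2, had 64.9, 80.8 and 64.9 CPM in LPS mice, against 77.9, 82.2, 68.6, 69.0 and 70.4 CPM in PBS mice. The LPS library s14 lay near the top of the PBS range and the other two lay below it. The log2 fold change was -0.07 (SE 0.13, 95% interval -0.36 to 0.22, adjusted p = 0.82 by edgeR). Counted against each other within a library, and with 0.5 added to each count, Btrc had between 0.0530 and 0.0583 UMIs per UMI of Fbxw11 in LPS mice and between 0.0528 and 0.129 in PBS mice. Most of the β-TrCP UMIs counted in each of the 8 libraries were thus those of Fbxw11.

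Gsk3b (chr16:38089001-38246084), the kinase, had 15.6, 10.8 and 13.3 CPM in LPS mice, against 22.3, 13.9, 24.3, 11.6 and 17.0 CPM in PBS mice. The groups overlapped, and the PBS libraries s1 and s6 were the highest. Its log2 fold change was -0.42 (SE 0.26, 95% interval -0.98 to 0.15, adjusted p = 0.42 by edgeR).

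**Figure D4:**
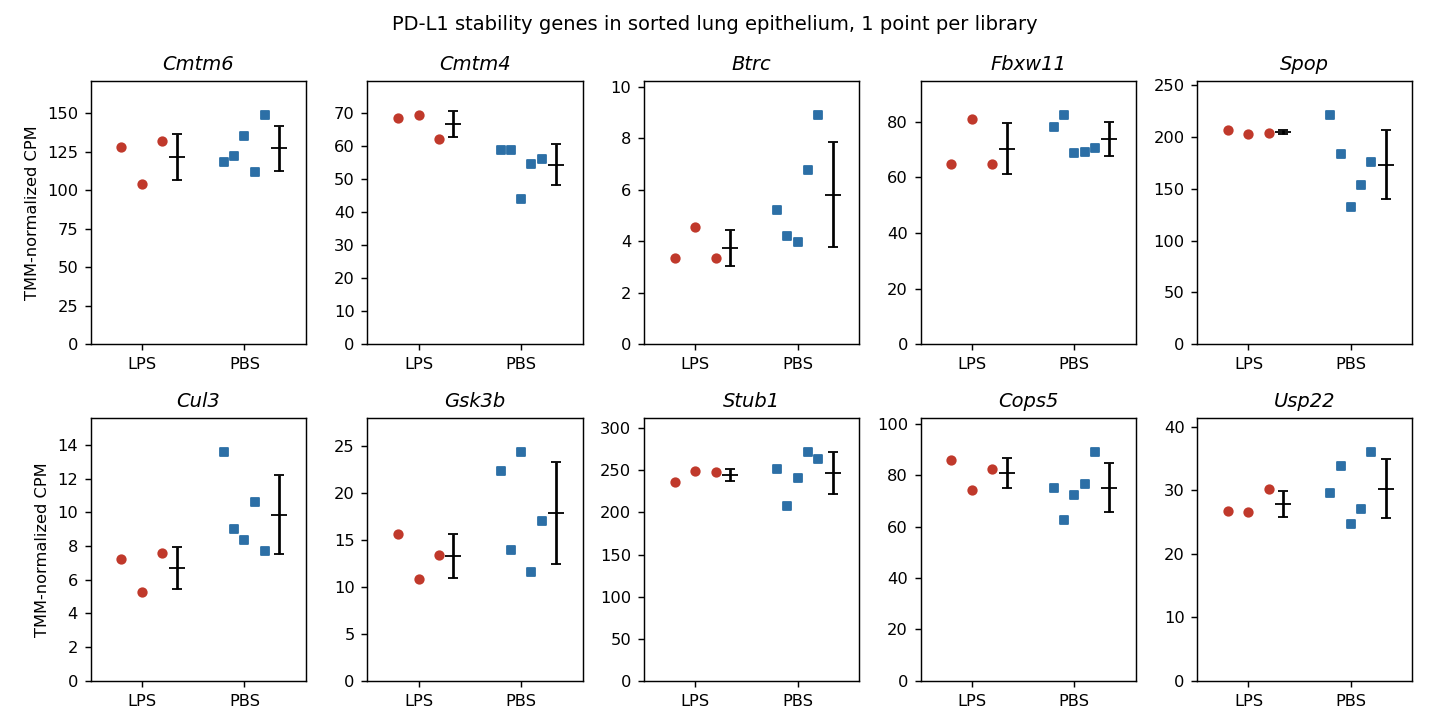
TMM-normalized CPM of the 10 members in LPS mice (circles, n = 3) and PBS mice (squares, n = 5), 1 point per library, with the mean and SD beside each group. LPS points lie above all PBS points for Cmtm4 and below all of them for Cul3, and the groups overlap for the other 8.

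SPOP and CUL3 form a single ligase, in which the adaptor SPOP holds the substrate and CUL3 is the scaffold that it shares with many other adaptors. Spop (chr11:95414083-95493410) had 207, 203 and 204 CPM in LPS mice, against 221, 183, 133, 154 and 176 CPM in PBS mice. The LPS libraries lay close together, inside the upper part of the PBS range, with s1 above them and s6 far below. The means were 205 ± 2.13 CPM in LPS mice (SD, n = 3) and 173 ± 33.1 CPM in PBS mice (SD, n = 5), and the log2 fold change was 0.24 (SE 0.16, 95% interval -0.11 to 0.58, adjusted p = 0.46 by edgeR). The coefficient of variation was 1.04% in LPS mice, below the 3.57% that counting alone gives on average, and 19.1% in PBS mice, above the 4.67% of counting.

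Cul3 (chr1:80264923-80340690) had 7.21, 5.25 and 7.56 CPM in LPS mice, against 13.6, 9.03, 8.37, 10.6 and 7.68 CPM in PBS mice. All LPS libraries were below all PBS libraries, by a margin of 7.56 CPM in s18 against 7.68 CPM in s16, which is smaller than the counting error of either (34 UMIs in s18 and 19 in s16). Its log2 fold change was -0.54 (SE 0.26, 95% interval -1.11 to 0.02, unadjusted p = 0.057, adjusted p = 0.29 by edgeR). Groups with LPS below PBS throughout were found for 5.86% of all genes.

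Within a library, UMIs of the adaptor outnumbered those of the scaffold by more in LPS mice. With 0.5 added to each count, there were 28.3, 37.5 and 26.6 UMIs of Spop for each UMI of Cul3 in LPS mice, against 16.1, 19.9, 15.5, 14.2 and 22.3 in PBS mice. The groups did not overlap. The mean log2 ratio was 4.93 ± 0.26 in LPS mice (SD, n = 3) and 4.12 ± 0.27 in PBS mice (SD, n = 5), a difference of 0.81 (p = 0.018 by an exact permutation test, two-sided, with no smaller value open to 3 mice against 5). Adjusted over the 3 ratios examined, the permutation p was 0.054 and did not pass. The members were chosen with earlier results of these data known, which this adjustment does not take into account. Over 11 alternatives the difference ran between 0.66 and 0.91 with an adjusted p of 0.054 to 0.30. For 1 ratio that separates the groups alone, 0.054 is the smallest adjusted p open to 3 mice against 5. Alternatives with libraries left out allow only larger ones. The adjusted p therefore cannot decide whether the ratio of Spop to Cul3 differed. This ratio needs no scaling between libraries, but it shares the low counts of Cul3, between 15 and 39 UMIs per library.

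The other ratios did not separate the groups. The log2 ratio of Cmtm6 to Cmtm4 was 0.86 ± 0.25 in LPS mice (SD, n = 3) and 1.23 ± 0.27 in PBS mice (SD, n = 5), with a difference of -0.36 (two-sided exact permutation test, p = 0.14, adjusted p = 0.18). For Btrc to Fbxw11 it was -4.19 ± 0.075 in LPS mice (SD, n = 3) and -3.68 ± 0.53 in PBS mice (SD, n = 5), with a difference of -0.51 (two-sided exact permutation test, p = 0.18, adjusted p = 0.18).

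**Figure D5:**
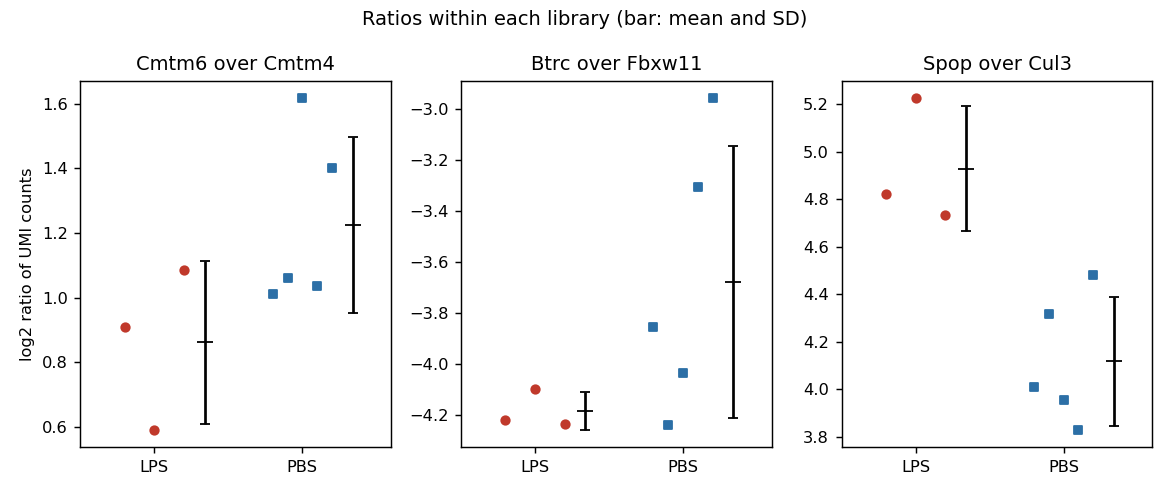
Log2 ratio of UMI counts of paired members within each library, in LPS mice (circles, n = 3) and PBS mice (squares, n = 5), with mean and SD. For Spop over Cul3 the LPS libraries lie between 4.73 and 5.23 and the PBS libraries between 3.83 and 4.48.

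Stub1 (chr17:25830634-25832919) encodes CHIP, a ubiquitin ligase that works with the chaperones HSP70 and HSP90. It had 236, 249.5 and 248 CPM in LPS mice, against 252, 208, 241, 272 and 264 CPM in PBS mice. The LPS libraries lay within the PBS range, and no other member was measured as precisely. The difference on the log2 scale was -0.01 (SE 0.13, adjusted p = 0.97 by edgeR), and the 95% interval allows a fold of 0.817 to 1.20. The gene overlaps Jmjd8, and the sources used here do not give whether counting used the strand.

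The deubiquitinases spare PD-L1 from the proteasome. Cops5 (chr1:10024600-10038159), the catalytic subunit of the COP9 signalosome that also removes NEDD8 from cullins, had 85.8, 74.2 and 82.3 CPM in LPS mice, against 74.8, 62.6, 72.2, 76.7 and 89.0 CPM in PBS mice. The groups overlapped, the log2 fold change being 0.11 (SE 0.14, 95% interval -0.19 to 0.41, adjusted p = 0.73 by edgeR). Usp22 (chr11:61151781-61175059), the deubiquitinase of the SAGA coactivator, had 26.7, 26.6 and 30.2 CPM in LPS mice, against 29.6, 33.9, 24.7, 27.0 and 36.0 CPM in PBS mice. Here too the groups overlapped, and the log2 fold change was -0.12 (SE 0.17, 95% interval -0.48 to 0.24, adjusted p = 0.76 by edgeR). Cops5 overlaps Cspp1 and Usp22 overlaps Tnfrsf13b, with the same limit on strand, which holds also for Gsk3b and the long non-coding RNA gene BC031361, and for Btrc and a pair of pseudogenes.

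Cd274, the transcript of PD-L1 itself, had 13.2, 5.25 and 9.79 CPM in LPS mice, against 3.13, 5.81, 1.20, 0.965 and 3.23 CPM in PBS mice. These values rest on 55, 15 and 44 UMIs in LPS mice and on 9, 18, 3, 2 and 8 UMIs in PBS mice, so that s6 and s11 stood at or under the count of 3 taken as the floor. The groups overlapped through s14 and s2, and the log2 fold change of 1.66 (SE 0.45, 95% interval 0.67 to 2.65) had an adjusted p of 0.091 by edgeR's quasi-likelihood test and of 0.032 by DESeq2. Left out in turn, single libraries gave 1.35 (adjusted p = 0.28 by edgeR, without s4) to 2.11 (adjusted p = 0.045, without s2), and s2 was the only library whose removal gave a call. The upper bound of the interval was below 0.67 for all 10 members. The part of macrophages in Cd274, whose markers other than Lyz2 took a larger share in the LPS libraries as given above, was not tested. Cd274 overlaps Plgrkt and the long non-coding RNA gene Gm36043, with the limit on strand given above.

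The wider machinery around the members was followed in 12 lists, with 125 further genes tested. Of these edgeR called 1 higher and 0 lower, beside 2.03% of all genes, and DESeq2 called 4, beside 4.42% of all genes. At an unadjusted p under 0.05 there were 5 with a positive and 6 with a negative log2 fold change, where 10.4% and 7.64% of all genes passed, and the median was -0.05. The called gene was Fbxw9, an F-box protein like Btrc and 1 of 13 other substrate receptors of SCF tested. Fbxw9 had 76.9, 66.1 and 76.5 CPM in LPS mice, against 54.3, 53.2, 38.7, 43.4 and 43.3 CPM in PBS mice, with no overlap. For Fbxw9 the log2 fold change came to 0.65 ± 0.14 (SE, adjusted p = 0.043 by edgeR), and the call was lost without s4 (adjusted p = 0.16), s14 (0.10), s18 (0.16), s6 (0.058), s11 (0.12) or s16 (0.070), with log2 fold changes of 0.59 to 0.72 under leaving out any single library.

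The ligase scaffolds held 0 calls. Of 11 genes of the SCF core and neddylation, the smallest p were those of Ube2m, the E2 enzyme of NEDD8, at 0.28 on the log2 scale (adjusted p = 0.26 by edgeR), and of Ube2r2 with 0.38, beside a list median of -0.22. The 12 other CUL3 adaptors had a median of -0.03, the 6 other cullins -0.07 and the 9 other COP9 signalosome subunits -0.03. Their smallest p belonged to Kbtbd7 (-1.12) and Klhl9 (-0.43), to Cul9 (0.38) and Cul1 (-0.37), and to Cops4 (-0.14) and Cops7b (0.18), all of them not called. Gsk3b had 12 partners and upstream kinases tested, of which Axin2, a scaffold of the β-catenin destruction complex and a Wnt target, stood at -0.56 (adjusted p = 0.23 by edgeR) and Frat1 at -0.61.

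Chaperones and E2 enzymes that work with CHIP had a median of 0.14 over 13 genes, and the smallest p were those of Bag1, a cochaperone of HSP70, at 0.30 (adjusted p = 0.23 by edgeR) and of Hspbp1 at 0.26. Among 12 other CMTM and MARVEL domain genes, Cmtm3 stood at 0.56 and Mal at -0.48 (adjusted p = 0.19 for each by edgeR). The 6 partners and paralogues of Usp22 had a median of -0.16, with Usp27x at -0.80 and Atxn7l3 at -0.22, neither called. Of 14 other ligases and deubiquitinases known for PD-L1, Usp7 stood at -0.37 and Otub1 at 0.39, again with 0 calls. Of 9 genes for PD-L1 traffic and modification, Zdhhc3, which palmitoylates PD-L1, stood at -0.49 (adjusted p = 0.093 by edgeR and 0.047 by DESeq2) and B3gnt3, which extends its glycans, at 0.86 (adjusted p = 0.20 by edgeR).

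The kinase CDK4, with cyclin D, phosphorylates SPOP, and p16 inhibits CDK4 and CDK6, so the 9 tested genes of cyclin D, CDK4/6 and their inhibitors were the last list. Their median was -0.20, and edgeR called 0 and DESeq2 called 2, where it called 4.42% of all genes. Ccnd2 had 31.2, 33.6 and 26.0 CPM in LPS mice, against 55.7, 57.1, 34.7, 50.2 and 56.6 CPM in PBS mice (log2 fold change -0.75, SE 0.19, adjusted p = 0.064 by edgeR and 0.013 by DESeq2). Ccnd1 had 182, 174 and 141 CPM in LPS mice, against 217, 222, 251, 343 and 372 CPM in PBS mice (log2 fold change -0.76, SE 0.20, adjusted p = 0.086 by edgeR and 0.020 by DESeq2). In both genes every LPS library was below every PBS library, as in 5.86% of all genes. The gene of p16, Cdkn2a, was not analysed here.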

How the data were processed

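Bulk MARS-seq libraries of sorted lung epithelium from 3 LPS and 5 PBS mice were compared. The authors processed the reads with the UTAP pipeline, kept reads that had a single hit at the 3′ part of a RefSeq gene (mm10), and deposited a table of UMI counts per gene and mouse. No aligner is named in the sources used here. The 16 other columns of values per library and the columns of the authors' own comparison by DESeq2 (fold changes and p-values, version not given) were not used. The deposited table held only genes that reached at least 6 counts in some library. Columns give the group and a number found in no sample label, so libraries were assigned to groups only.

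Genes with at least 30 UMIs over the 8 libraries (12661, with 604 not tested) were scaled by TMM, and LPS was compared with PBS by edgeR 4.0.16 (glmQLFTest, R 4.3.3), calls needing an adjusted p under 0.05 with a fold over 1.25. CPM are TMM-normalized. The standard error (SE) was taken as the size of the log2 change over √F. Ratios of members were taken within each library, with 0.5 added to both counts, and compared by exact permutation. UMI counts correct for PCR copies, and counting errors cover counting only. Alternatives were DESeq2 1.42.0, limma-voom (limma 3.58.1), DESeq2 size factors, library totals, other filters, no fold threshold, thinning, and libraries left out. The test was checked on simulated data.

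The members and all lists were chosen with earlier results of these data known. Named genes are the 10 members and Cd274, and from each pathway list every called gene or otherwise the 2 with the smallest p. The 3 profiles closest to the member with the smallest p are also named. Gsk3a and Spopl were named outside this rule, and leaving Lyz2 out of the macrophage share was added after seeing the data. Coordinates are those of RefSeq on GRCm38.p6. The promoter table holds 7 of the 10 members, and Btrc, Cops5 and Usp22 are named only.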

Additional observations from a re-analysis of the deposited data

Results flagged for a closer look

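Cmtm4 in the PBS library s6 was at 43.9 CPM, apart from the nearest PBS library at 54.5 CPM by 0.713 of the range of the group, where Dixon's critical value for 5 samples is 0.71. It was the only such value among 14 groups checked (the members, Cd274 and the ratios in PBS mice), and chance gives about 1 in 20. Without s6 the log2 fold change of Cmtm4 was 0.22 (adjusted p = 0.38 by edgeR).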

How the results depend on the processing

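No member was called in any of 170 values (10 members under 17 alternatives). No paired analysis was possible because the columns of the count table carry no replicate number of the sample labels, so no replicate block could be fitted. In counts over all genes, the PBS libraries s1 and s2 were the most alike pair (chi-square per degree of freedom 2.99, against 7.81 to 30.3 for other pairs). The alternatives include leaving out s1 and s2 together, and leaving out the other PBS libraries together. The direction held for 7 members under all 17 alternatives. Among them Spop was at 0.41 without the PBS libraries s1 and s2 and at 0.030 without s6, s11 and s16, and Btrc at -0.82 without s1 and s2 and at -0.34 without s6, s11 and s16. The exceptions, Cmtm6, Fbxw11 and Stub1, lay near 0. With library totals alone Cmtm6 was at 0.022, Fbxw11 at 0.0039 and Stub1 at 0.075, and the median of all genes was 0.058, against -0.022 under TMM. Without the PBS libraries s1 and s2 Fbxw11 was at 0.015, and without s6, s11 and s16 Cmtm6 was at 0.026 and Stub1 at 0.10. Leaving out each library in turn gave -0.14 to 0.032 for Cmtm6, -0.071 to 0.020 for Stub1 and 1.35 to 2.11 for Cd274. Cd274, not called in the main fit, was called in 3 of 17 alternatives. These were DESeq2 (1.69, adjusted p = 0.032) and edgeR without s1 and s2 (2.36, adjusted p = 0.029) or without s2. The alternatives with no call include edgeR without s4 (1.35, adjusted p = 0.28), s18 (1.64, adjusted p = 0.20) or s11 (1.48, adjusted p = 0.19), and without s6, s11 and s16 (1.11, adjusted p = 0.24).

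Over all genes 185 were called higher and 72 lower. The counts were 369 and 191 by DESeq2, 527 and 381 without s1 and s2, and 47 to 259 higher and 12 to 95 lower over the libraries left out in turn (fewest without s18, with 47 and 12, then s4, with 48 and 12, s11, with 71 and 20, and s14, with 78 and 20). The lower count was 42 with library totals and 47 without s6, s11 and s16. Fbxw9 kept its call in 8 of 17 alternatives (log2 fold change 0.46 to 0.81). The causes of these shifts were not tested. Among the members depth limits Btrc and Cul3 most, at 10 to 39 UMIs per library, and Cd274 rests on 2 to 55.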

Other observations

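Paralogues of members differed widely in level. Gsk3a had 153, 137 and 158 CPM in LPS mice, against 138, 156, 144, 139 and 119 CPM in PBS mice, and was above Gsk3b in all 8 libraries. Gsk3a differed by 0.10 on the log2 scale (SE 0.13, adjusted p = 0.74 by edgeR). Spopl, the paralogue of Spop, had 4.56, 3.50 and 4.67 CPM in LPS mice, against 4.52, 4.84, 3.59, 3.38 and 0.809 CPM in PBS mice, and was below Spop throughout (log2 fold change 0.30, SE 0.41, adjusted p = 0.75 by edgeR). Both were chosen for their relation to a member after their values were seen.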
